A study of Mus musculus with 6 samples.

Results

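The 9 genes described here encode the Fos proteins (Fos, Fosb, Fosl1, Fosl2), the Jun proteins (Jun, Junb, Jund) and a pair of related factors, Atf3 and Jdp2, that bind the same kind of DNA site. They were taken as a list of gene symbols, each read from its single-symbol probe set, and all 9 were found among the 19935 genes measured. Each of the 9 had 1 such probe set. The osteoblastic cells came from male Y1KO mice, which are deficient in the Y1 receptor for neuropeptide Y (2 arrays), and from male WT mice (4 arrays). In both groups bone marrow stromal cells of the femora and tibias carried green fluorescent protein under a 3.6-kb fragment of the rat alpha1(I)-collagen promoter. The cells were kept in control medium for 7 days, trypsinised and sorted for fluorescence, so a culture holds the cells that this promoter marks and the sort lets through. The labels do not give the age or strain of the mice, the cells from which the receptor was lost or the number of mice behind each array.

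AP-1 is a dimer of basic leucine zipper proteins. A Fos protein pairs with a Jun protein, Jun proteins can also pair with each other, and Atf3 and Jdp2 pair with Jun proteins or with themselves and often act as repressors. Several of these genes are immediate early genes, whose transcripts are made within minutes of a signal through MAP kinases or cAMP, and the activity of the proteins depends on phosphorylation, which an array does not measure. In bone, Fos is needed for osteoclasts, while Fosl1, Fosl2, Junb and Jun are known for roles in osteoblasts. The comparison asks which of these transcripts differ in osteoblastic cells when the Y1 receptor, which lowers cAMP, is missing.

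The 250 bases before the annotated start are shown for the 4 members that rose in Y1KO cells, Atf3, Fos, Junb and Jund, and for Jun, the member of the Jun group with the lowest difference, so that the letters near each start can be set beside its values, with the genes shown chosen after those values were seen. Sequences are from RefSeq on GRCm38.p6, on the strand of the gene, 5′ to 3′. Capitals mark matches to the letters searched. Atf3 lies at chr1:191183334-191183583 on the minus strand, Fos at chr12:85473640-85473889 on the plus strand, Junb at chr8:84978749-84978998 on the minus strand, Jund at chr8:70697489-70697738 on the plus strand and Jun at chr4:95052223-95052472 on the minus strand.
Atf3: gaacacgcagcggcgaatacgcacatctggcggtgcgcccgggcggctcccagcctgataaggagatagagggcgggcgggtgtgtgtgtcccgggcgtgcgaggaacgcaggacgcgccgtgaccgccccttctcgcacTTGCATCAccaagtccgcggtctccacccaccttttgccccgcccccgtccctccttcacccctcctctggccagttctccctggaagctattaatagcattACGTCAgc
Fos: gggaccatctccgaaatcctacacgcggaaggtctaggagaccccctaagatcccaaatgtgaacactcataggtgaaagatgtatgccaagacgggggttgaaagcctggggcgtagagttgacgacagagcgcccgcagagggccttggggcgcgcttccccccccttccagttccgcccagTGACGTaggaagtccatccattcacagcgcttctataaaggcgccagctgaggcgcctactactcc
Junb: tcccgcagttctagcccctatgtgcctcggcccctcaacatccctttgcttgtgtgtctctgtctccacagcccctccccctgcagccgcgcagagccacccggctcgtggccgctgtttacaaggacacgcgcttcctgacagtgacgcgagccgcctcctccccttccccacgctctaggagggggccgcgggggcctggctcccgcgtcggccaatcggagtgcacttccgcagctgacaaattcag
Jund: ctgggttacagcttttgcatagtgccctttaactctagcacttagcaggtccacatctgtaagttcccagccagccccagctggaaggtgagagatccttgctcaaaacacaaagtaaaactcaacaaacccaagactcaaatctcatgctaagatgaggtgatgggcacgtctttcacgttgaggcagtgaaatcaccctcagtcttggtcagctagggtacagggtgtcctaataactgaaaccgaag
Jun: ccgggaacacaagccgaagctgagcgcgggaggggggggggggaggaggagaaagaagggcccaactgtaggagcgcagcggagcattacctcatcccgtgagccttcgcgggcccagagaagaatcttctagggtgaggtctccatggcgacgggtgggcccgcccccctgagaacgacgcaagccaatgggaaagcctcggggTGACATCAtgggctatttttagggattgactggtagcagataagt

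The letters searched, on both strands, were TGANTCA for the classical AP-1 site, TGACNTCA for the cAMP response element and the related Jun site, TGACGT for the core of a cAMP response element, TGANGCAA for sites of Atf4 with C/EBP proteins, and the CArG box of serum response factor. The TGACGT core lies inside TGACNTCA when N is G, so those matches can overlap. Promoters were found in the RefSeq table for 8 of the 9 members, with 3 annotated starts for Jdp2 and 10 promoters in all. Atf3 held the core as ACGTCA from 8 to 3 bases before its start, and TTGCATCA, a match to the Atf4 letters, from 110 to 103 bases before it. Fos held TGACGT from 66 to 61 bases before its start, and Jun held TGACATCA from 45 to 38 bases before its start. Fosb held TGACGCAA from 60 to 53 bases before its start, and the second Jdp2 start had TGACGT from 114 to 109 and TGATGCAA from 33 to 26 bases before it. Of all 32851 promoters in the table, the same length of sequence held TGACNTCA in 7.49%, TGANTCA in 6.75%, TGACGT in 6.47%, TGANGCAA in 3.12% and the CArG box in 1.47%. TGANTCA and the CArG box had no match in these windows of the members, and neither Junb, Jund nor Fosl2 held any of the letters there. Sequence farther than 250 bases before a start was not searched, so a site farther out would be missed. A match is a description of the letters and not a sign that a protein binds there. The core thus lay in this window for Atf3 and Fos, which rose, and for Jdp2, which did not. Junb and Jund rose and did not have it.

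All levels below are the deposited log2 expression values, and a difference is Y1KO minus WT on that scale given with its standard error (SE) from a limma fit over all genes. The array medians lay between 5.3 and 5.37. The correlation over all genes was 0.9961 between the Y1KO arrays and 0.9911 to 0.9958 among the WT arrays, against 0.9762 to 0.9875 across genotypes. All 9 members read above the median of all genes in WT. Npy1r, the gene of the missing receptor, read 2.89 and 2.83 in the Y1KO arrays, against 3.11, 2.84, 2.78 and 3.00 in the WT arrays, low on the array in both groups, so it does not check the genotype labels. Of the osteoblast markers, Col1a1 read 13.62 and 13.58 in Y1KO arrays, against 13.41, 13.35, 13.44 and 13.46 in WT arrays, and 9 of 9 measured osteoblast markers lay above the median of all genes in WT. Runx2 had no single-symbol probe set and was not analysed here.

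Of the 9 members, 4 rose in Y1KO cells and 0 fell (limma, Benjamini-Hochberg adjusted over all genes). Over all genes tested, 12.7% were called, 6.1% higher and 6.64% lower in Y1KO. The groups did not overlap for 6 of the 9 members, against 34.8% of all genes. The median difference of the members was 0.34, beside 0.01 for all genes. The list was drawn up with earlier results of these arrays known, so its counts describe these genes and are not independent evidence of a direction. Atf3 led, and Junb, Fos and Jund followed with changes under 1.5-fold. At an unadjusted limma p under 0.05 the counts were 4 higher and 1 lower, which was Jdp2. With Y1KO replicate 1 left out, 1 member was called higher (Atf3), and with Y1KO replicate 2 left out, 2 were (Atf3 and Junb). The calls over all genes then numbered 944 and 487, against 2541 with all 6 arrays.

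**Figure D1:**
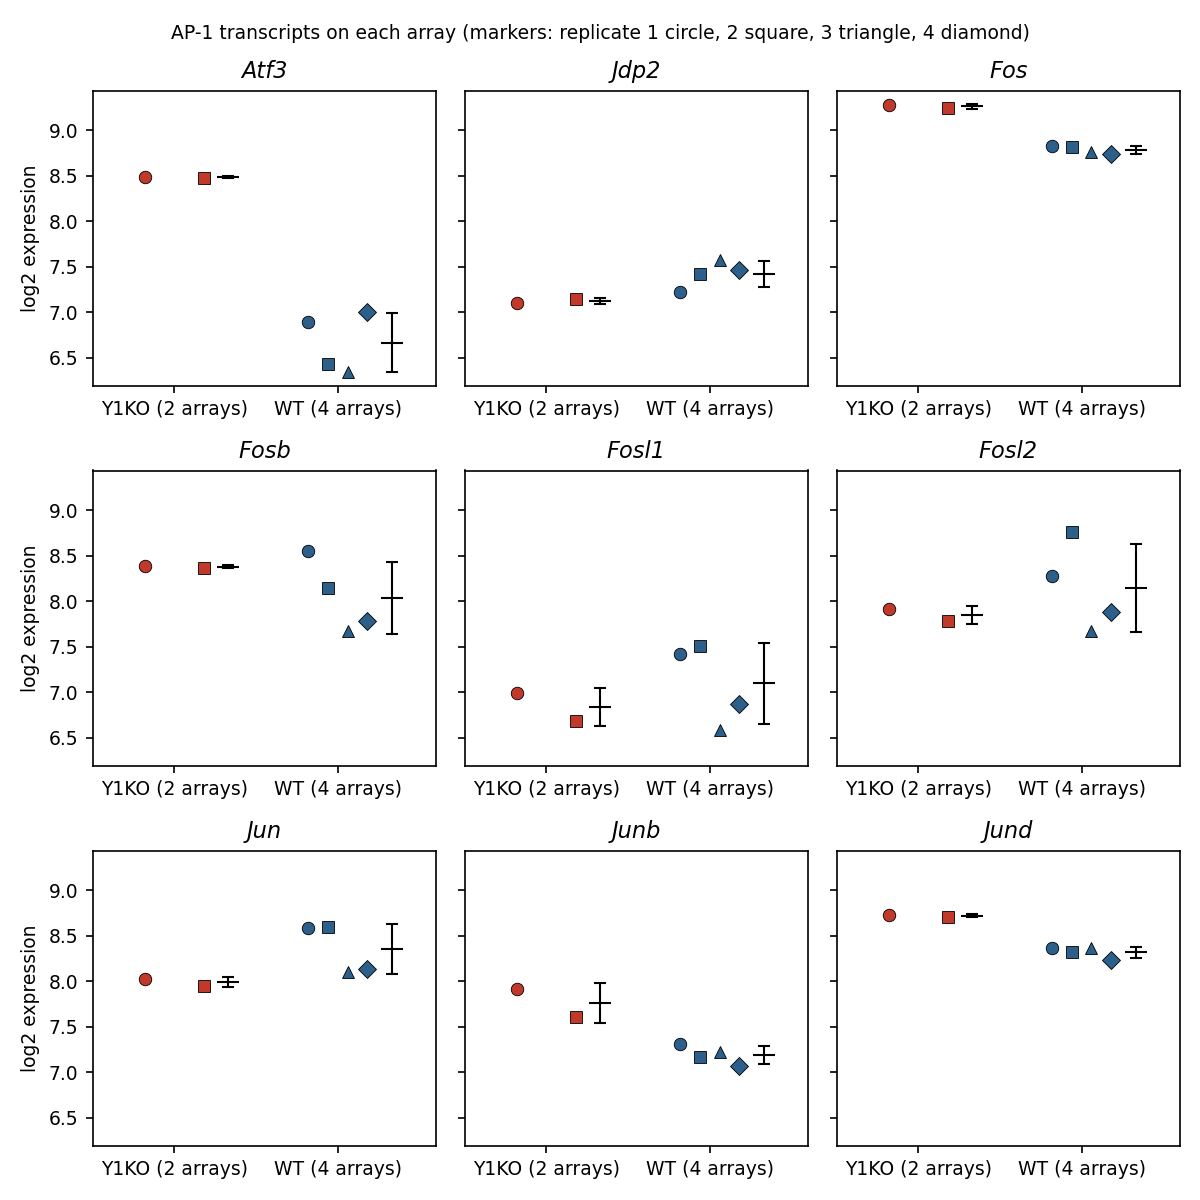
Log2 expression (y axis) of each of the 9 transcripts on each array (x axis, 2 Y1KO arrays in red and 4 WT arrays in blue, with the mean and SD as a black bar beside each group). For Atf3 the Y1KO arrays sit at 8.49 and 8.48, above the highest WT array at 7.00, while for Fosb, Fosl1 and Fosl2 the Y1KO arrays fall inside the spread of the WT arrays.

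Atf3, a repressor induced by stress signals, read 8.49 and 8.48 in the Y1KO arrays, against 6.89, 6.43, 6.35 and 7.00 in the WT arrays. Both Y1KO arrays lay above every WT array, and the gap from the highest WT array was wider than the whole WT range of 0.65. The Y1KO arrays differed by 0.02. Atf3 rose 3.52-fold, a difference of 1.82 (SE 0.18, 95% interval 1.40 to 2.24, limma adjusted p = 0.000909). The mean was 8.48 ± 0.01 (SD, n = 2) in Y1KO and 6.67 ± 0.33 (SD, n = 4) in WT. The call held when any 1 array was left out, with adjusted p = 0.0142 when Y1KO replicate 1 was left out and 0.0221 when Y1KO replicate 2 was. Without moderation of the variance its adjusted p was 0.0617. The WT spread of Atf3 was larger than that of 95.7% of all genes.

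Jdp2, the closest relative of Atf3 in this list, did not share the increase. It read 7.10 and 7.15 in the Y1KO arrays, against 7.22, 7.42, 7.57 and 7.47 in the WT arrays. The Y1KO arrays lay just below the WT arrays, with WT replicate 1 closest to them. The difference of -0.30 (SE 0.11, 95% interval -0.55 to -0.05) had a limma adjusted p of 0.129. Jdp2 is the next protein-coding gene after Fos along chromosome 12 in the RefSeq order, and Batf, another AP-1 factor, follows it. Batf had a difference of -0.18 (limma adjusted p = 0.477), and Flvcr2, the gene after Batf, rose by 1.36 (limma adjusted p = 0.0136). Batf3, which lies 2 protein-coding genes away from Atf3 on chromosome 1, had a difference of 0.01 (limma adjusted p = 0.974). The genes directly beside Atf3, Fam71a and Nenf, had differences of 0.21 and -0.05, neither past the test, and Nsl1, next to Batf3, fell by 0.49 (limma adjusted p = 0.0274). These neighbours were named after their values were seen.

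Among the Fos genes, Fos was called and the others were not. Fos, the founding member and an immediate early gene, read 9.28 and 9.24 in the Y1KO arrays, against 8.83, 8.81, 8.76 and 8.74 in the WT arrays. The WT arrays lay within 0.09 of each other and the Y1KO arrays stood clear of them. Fos rose 1.39-fold, by 0.48 (SE 0.08, 95% interval 0.29 to 0.66, limma adjusted p = 0.00721). With Y1KO replicate 1 left out, the difference was 0.46 with an adjusted p of 0.072, and with Y1KO replicate 2 left out it was 0.50 with an adjusted p of 0.0726. Fosb, an early gene often induced together with Fos, read 8.39 and 8.37 in the Y1KO arrays, against 8.55, 8.15, 7.67 and 7.78 in the WT arrays. WT replicate 1 lay above both Y1KO arrays and the other WT arrays lay below them. Fosb was thus 0.34 higher (SE 0.22, 95% interval -0.16 to 0.84), which did not pass the test (limma adjusted p = 0.412), and the difference was 0.51 without WT replicate 1 and 0.22 without WT replicate 3.

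Fosl1 (Fra-1) and Fosl2 (Fra-2) lack the strong activation domain of Fos and are known for roles in bone matrix formation. Fosl1 read 6.99 and 6.69 in the Y1KO arrays, against 7.42, 7.51, 6.59 and 6.87 in the WT arrays. Fosl2 read 7.92 and 7.78 in the Y1KO arrays, against 8.28, 8.76, 7.67 and 7.88 in the WT arrays. For both genes WT replicates 1 and 2 were the highest of the 6 arrays and WT replicate 3 was the lowest. The differences were -0.26 (95% interval -0.82 to 0.30) for Fosl1 and -0.29 (95% interval -0.88 to 0.30) for Fosl2, with limma adjusted p of 0.612 and 0.578. With 1 array left out at a time, Fosl1 ranged from -0.43 (without WT replicate 3) to -0.11 (without Y1KO replicate 2) and -0.12 (without WT replicate 2), and Fosl2 from -0.45 (without WT replicate 3) to -0.09 (without WT replicate 2). Both intervals hold 0, and a difference of this size was not detectable with these arrays.

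Among the Jun genes, Junb and Jund rose and Jun did not pass the test. Jun read 8.03 and 7.95 in the Y1KO arrays, against 8.58, 8.60, 8.10 and 8.13 in the WT arrays. The Y1KO arrays were below all WT arrays, but WT replicates 3 and 4 were nearer to the Y1KO arrays than to WT replicates 1 and 2. The difference of Jun was -0.36 (SE 0.16, 95% interval -0.72 to 0.01, limma adjusted p = 0.215). Junb, a weaker activator that can oppose Jun at some promoters, read 7.92 and 7.61 in the Y1KO arrays, against 7.31, 7.17, 7.22 and 7.07 in the WT arrays. Both Y1KO arrays were above the WT arrays, and Y1KO replicate 1 was the higher of them. Junb rose 1.49-fold, by 0.57 (SE 0.11, 95% interval 0.31 to 0.83, limma adjusted p = 0.0128). Without Y1KO replicate 1 its difference was 0.42 with an adjusted p of 0.132, and without moderation the adjusted p was 0.105. Jund, which many resting cells express steadily, read 8.73 and 8.71 in the Y1KO arrays, against 8.36, 8.32, 8.36 and 8.23 in the WT arrays. Its groups were each tight and did not overlap. Jund rose 1.32-fold, by 0.40 (SE 0.09, 95% interval 0.21 to 0.60, limma adjusted p = 0.0164). The adjusted p of Jund was 0.116 when Y1KO replicate 1 was left out, 0.123 when Y1KO replicate 2 was, and 0.0512 in the fit with unmoderated variances.

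**Figure D2:**
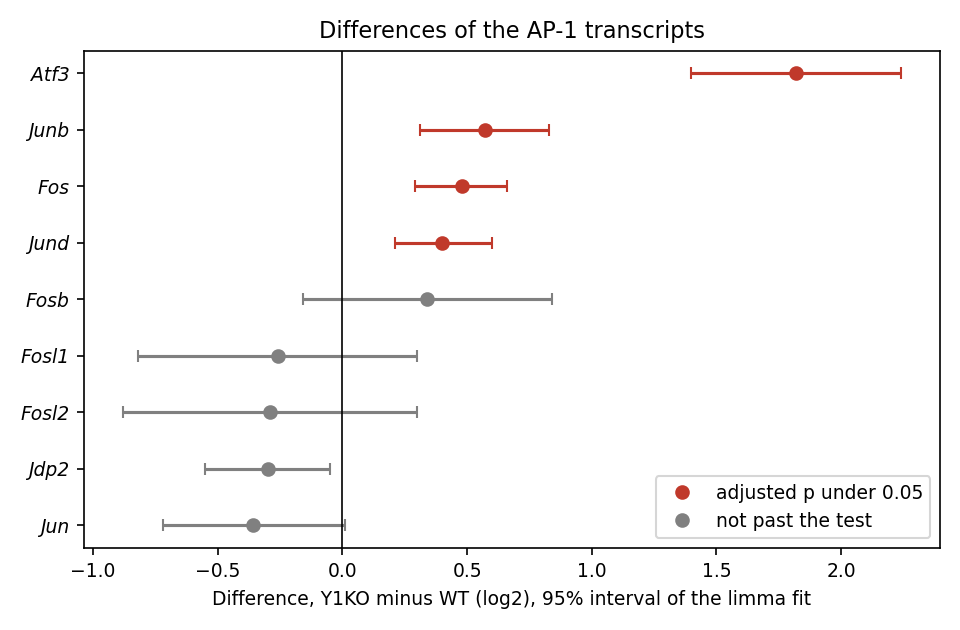
Difference of each member, Y1KO minus WT on the log2 scale (x axis), with the 95% interval of the limma fit. The members run down the page by size, from Atf3 at 1.82 to Jun at -0.36. Red marks an adjusted p under 0.05.

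The change in Atf3 relative to each other member was taken within each array as the log2 ratio of Atf3 to that member, set to the WT mean. The ratio was higher in both Y1KO arrays than in every WT array for all 8 members, and the change between groups ran from 1.25 for Junb to 2.18 for Jun. An exact two-sided permutation test gave p = 0.0667 for each of the 8 ratios (adjusted p = 0.0667 over the 8), the smallest p that 15 splits of 4 and 2 arrays allow, so this design cannot reach 0.05. Against Fos the ratio was 1.33 and 1.35 in the Y1KO arrays, and 0.18, -0.26, -0.29 and 0.38 in the WT arrays. Against Jun it was 2.14 and 2.21 in the Y1KO arrays, and -0.00, -0.48, -0.07 and 0.55 in the WT arrays. The ratio of Junb to Jun, chosen after the values were seen, was 1.04 and 0.82 in the Y1KO arrays and -0.10, -0.27, 0.28 and 0.09 in the WT arrays, a change of 0.93 with the same exact permutation p of 0.0667 (0.82 to 1.04 with any 1 array left out or after quantile normalization). The Atf3 ratios hold the 1.82 difference of Atf3 itself, and a ratio does not say which of its sides moved.

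The members also differed in how much they varied among the WT arrays. Fos and Jund were among the steadier genes, with a WT SD larger than that of 4.7% and 11.9% of all genes. Fosl2, Fosl1, Fosb and Jun were among the more variable, with a WT SD larger than that of 98.6%, 98.2%, 97.5% and 92.4% of all genes. In these 4 genes WT replicates 1 and 2 read above the WT mean and WT replicates 3 and 4 below it. Relative to the WT mean, Fosl2 read 0.13 and 0.61 in WT replicates 1 and 2, and -0.48 and -0.27 in replicates 3 and 4. For Jun the same arrays read 0.22, 0.25, -0.25 and -0.22. Atf3 had another order, with WT replicates 1 and 4 at 0.22 and 0.33 and replicates 2 and 3 at -0.24 and -0.32. The labels name no batch that would part the WT arrays this way.

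**Figure D3:**
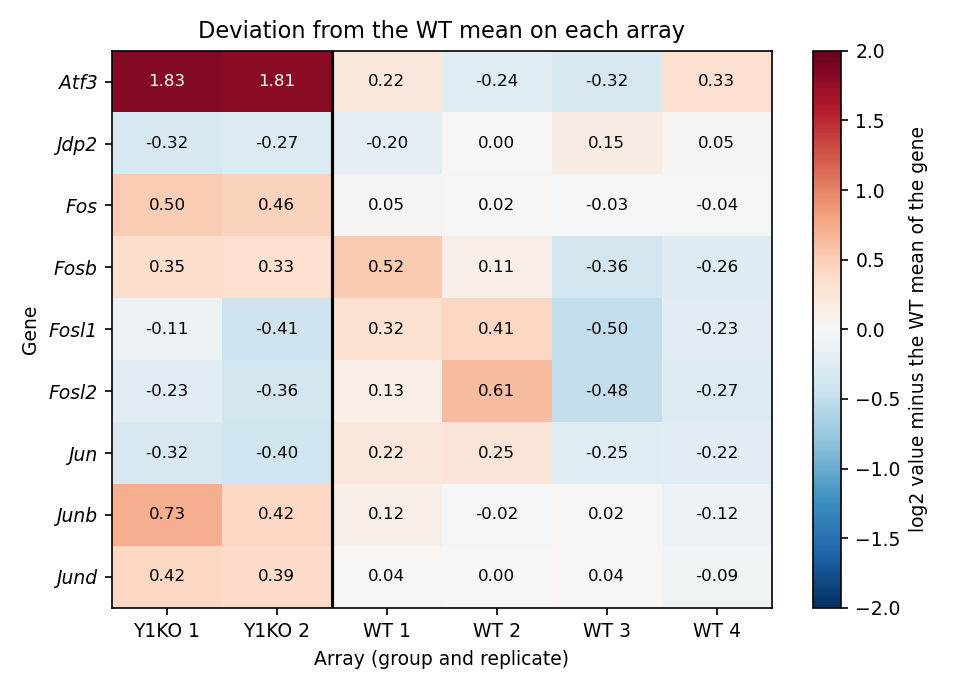
Log2 value of each member minus its WT mean (colour and printed number) on each array (columns, Y1KO arrays to the left of the line and WT arrays to the right). Atf3 stands at 1.83 and 1.81 in the Y1KO arrays, and Fosb, Fosl1, Fosl2 and Jun are above 0 in WT replicates 1 and 2 and below 0 in WT replicates 3 and 4.

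The genes with array values most like those of Atf3 were Nebl, Nt5e, Tubb3, Slc17a9 and Dchs1. Likeness was the root mean square difference over the 6 arrays after each gene was set to its own WT mean, among genes above the median level. It ran from 0.167 for Nebl, a nebulin-related actin-binding protein, to 0.267 for Dchs1, a large cadherin. Nebl read 8.27 and 8.35 in the Y1KO arrays, against 6.91, 6.15, 6.46 and 6.63 in the WT arrays, a difference of 1.77. The difference was 1.89 for Nt5e, which makes adenosine outside the cell, 1.69 for Slc17a9, a vesicular nucleotide transporter, 1.64 for Dchs1 and 1.53 for the tubulin gene Tubb3. The genes most like Fos were Dhx8, Rabl3, Fam135a, Ampd2 and Cpeb4, with root mean square differences of 0.02 to 0.038 and differences of 0.45 to 0.48. These genes were picked for array values close to those of Atf3 or Fos, which fixes their difference between the groups, so it is given with no test. None of the 8 other members was among the 5 genes most like Atf3 or Fos, which follows from their array values above and is not a separate result.

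The integrated stress response switches on genes through Atf4 when translation is slowed, and Atf3 is a known late member of it. The list examined joins such genes with sensors and targets of the unfolded protein response of the ER, some of which act through Ire1 and Atf6. Of its 25 measured genes, Atf3 not counted, 13 rose and 0 fell, and 17 were higher and 0 lower at an unadjusted limma p under 0.05. The median difference was 0.47, beside 0.01 for all genes, of which 6.1% were called higher and 6.64% lower. The genes that rose include Eif2ak3, Xbp1, Herpud1, Dnajb9 and, named after its value was seen, Ern1 of the ER group, and the others are mostly genes of amino acid supply and metabolism. Eif2ak3, the ER stress kinase PERK, read 8.76 and 8.84 in the Y1KO arrays, against 8.03, 7.79, 7.84 and 8.01 in the WT arrays, and rose by 0.89 (SE 0.10, limma adjusted p = 0.00144). The groups stood well apart. Dnajb9, an ER co-chaperone, rose by 0.91, Xbp1, a transcription factor of the unfolded protein response, by 0.60 and Herpud1, a membrane protein of ER quality control, by 0.53. Named after their values were seen, Vldlr rose by 1.48, Slc7a11, the cystine transporter, by 1.37, and Asns, the asparagine synthetase, by 0.68. Atf4 itself, counted with the partners below and also named afterwards, was 0.30 higher (95% interval 0.02 to 0.58, limma adjusted p = 0.171) and Ddit3 (CHOP) 0.17 higher (limma adjusted p = 0.299), neither past the test. When either Y1KO array was left out, 1 of the 25 was called higher, and Dnajb9, Xbp1 and Herpud1 were not called in either fit.

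Other leucine zipper factors that pair with AP-1 proteins or share their sites were called about as often as all genes. Of 31 measured, 2 rose and 2 fell, beside 6.1% higher and 6.64% lower over all genes. Their median difference was 0.02. Cebpa, a factor of fat and myeloid cells, fell by 1.42 and read 6.47 and 6.50 in the Y1KO arrays, against 7.84, 7.82, 8.38 and 7.58 in the WT arrays (limma adjusted p = 0.00254). Maf fell by 0.83. Creb3l1 (OASIS), a membrane-bound factor needed for collagen secretion by osteoblasts, rose by 1.00, and the related Creb3 rose by 0.50. Creb3l1 had an adjusted p of 0.0684 when Y1KO replicate 1 was left out, and 1 gene of the list was then called higher. With Y1KO replicate 2 left out, Creb3l1 had an adjusted p of 0.0808 and Creb3 of 0.182, and 0 genes were called higher. Named after their values were seen, the Jun partners Atf2 and Atf7 had differences of -0.10 and -0.11, neither past the test.

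The kinases and serum response factor partners that drive Fos and Jun showed few changes at the transcript level. Of 24 measured, 0 rose and 1 fell, beside 6.1% higher and 6.64% lower over all genes. The median difference was 0.05, and 2 were higher and 3 lower at an unadjusted limma p under 0.05. The gene that fell was Rps6ka5 (MSK1), a nuclear kinase that acts on Creb1 and histones at early genes, by 0.91 (SE 0.13, limma adjusted p = 0.00279). It read 4.46 and 4.64 in the Y1KO arrays, against 5.24, 5.62, 5.42 and 5.58 in the WT arrays, below the median of all genes in both groups, where an array can understate a difference. Srf, the serum response factor, differed by -0.40 (limma adjusted p = 0.0592), Mapk11 by -0.57 (0.0582) and Rps6ka3 by 0.33 (0.0756), none past the test. The lower genes numbered 2 with WT replicate 1, WT replicate 3 or Y1KO replicate 1 left out, and with WT replicate 3 left out the higher genes also numbered 2.

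Feedback regulators went both ways. Of 18 measured, 4 rose and 3 fell, beside 6.1% higher and 6.64% lower over all genes. Their median difference was 0.03. The Zfp36 genes encode proteins that bring AU-rich early transcripts such as Fos to decay, and they moved in opposite directions. Zfp36 read 9.36 and 9.06 in the Y1KO arrays, against 8.51, 8.51, 8.66 and 8.62 in the WT arrays, and rose by 0.63 (SE 0.11, limma adjusted p = 0.00685). Zfp36l2 fell by 1.30 and read 8.19 and 8.22 in the Y1KO arrays, against 9.51, 9.69, 9.41 and 9.41 in the WT arrays (limma adjusted p = 0.000324). Zfp36l1 fell by 0.90 and the MAP kinase phosphatase gene Dusp4 by 0.78. Zfp36l1 lost its call when either Y1KO array was left out, Zfp36 with Y1KO replicate 1 left out (adjusted p = 0.0747) and Dusp4 with Y1KO replicate 2 left out (0.0541). Of the other phosphatase genes, named after their values were seen, Dusp8 rose by 0.69, Dusp6 by 0.54 and Dusp14 by 0.47, while Dusp1 had a difference of 0.17 (limma adjusted p = 0.504). The higher genes numbered 2 with WT replicate 1, WT replicate 4 or Y1KO replicate 2 left out, and 0 with Y1KO replicate 1 left out. The lower genes then ranged from 1, with Y1KO replicate 2 left out, to 4.

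Genes described as AP-1 targets in connective tissue cells went both ways. Of 25 measured, 2 rose and 3 fell, beside 6.1% higher and 6.64% lower over all genes. Their median difference was 0.11. Mmp13, the collagenase whose promoter is a standard AP-1 target in osteoblasts, was the gene of this list with the lowest difference. It read 9.70 and 9.34 in the Y1KO arrays, against 11.52, 12.00, 11.88 and 11.45 in the WT arrays, a difference of -2.19 (SE 0.18, limma adjusted p = 0.000324). Csf1, the macrophage growth factor, fell by 1.69 and Fgf7 by 1.35. Ptgs2, the inducible cyclooxygenase, read 11.35 and 11.06 in the Y1KO arrays, against 10.50, 10.22, 9.77 and 10.25 in the WT arrays, and rose by 1.02 (SE 0.18, limma adjusted p = 0.00836). Tgfb1, named after its value was seen, rose by 0.48, and Ccnd1, the G1 cyclin, had a difference of 0.21 (limma adjusted p = 0.413). Ptgs2 and Fgf7 lost their calls when either Y1KO array was left out. The higher genes numbered 0 in those fits, 4 with WT replicate 2 left out and 1 with WT replicate 4 left out. Il6 and Mmp3, known AP-1 targets named afterwards, were dim in both groups, with Il6 at 2.91 in Y1KO and 2.91 in WT.

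**Figure D4:**
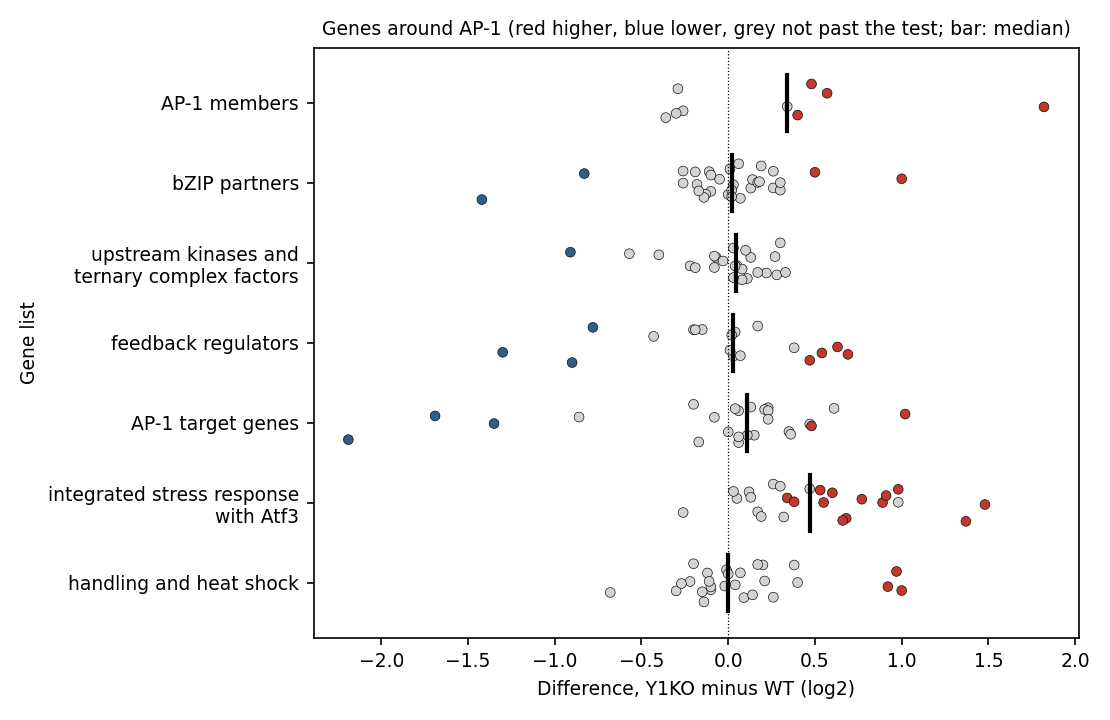
Difference of each gene, Y1KO minus WT on the log2 scale (x axis), for the 9 members and 6 lists of genes around them (y axis), with the median of each list as a black bar. Red genes rose, blue genes fell and grey genes did not pass the test. The median is 0.47 for the stress response list and 0.34 for the members, and lies between -0.00 and 0.11 for the other lists.

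Early genes and heat shock genes known to be induced while cells are detached and sorted were examined because these cells were trypsinised before sorting. Of 27 measured, which leave out the AP-1 members, 3 rose and 0 fell, beside 6.1% higher and 6.64% lower over all genes. The median difference was -0.00, and 6 were higher and 2 lower at an unadjusted limma p under 0.05. The 6 were the early genes Ier3, Klf4, Nr4a2, Egr1, Ier2 and Egr3. The 2 were the heat shock genes Hspb1, at -0.68, and Dnaja1, at -0.20. Egr3, Hspb1 and Dnaja1 were named after their values were seen. The median thus joins 2 classes of genes and does not describe the early genes alone, of which some read lower, such as Klf6 at -0.30. Ier3, an early gene linked to cell survival, read 8.71 and 8.49 in the Y1KO arrays, against 7.76, 7.73, 7.43 and 7.50 in the WT arrays, and rose by 1.00 (SE 0.12, limma adjusted p = 0.00196). The orphan receptor gene Nr4a2 rose by 0.92 and Klf4 by 0.97, and both lost their calls when either Y1KO array was left out, Klf4 also without WT replicate 3 (adjusted p = 0.0635). Ier2 was 0.38 higher (limma adjusted p = 0.0825). Egr1, named after its values were seen, read 9.21 and 8.55 in the Y1KO arrays, against 8.41, 8.47, 8.61 and 8.43 in the WT arrays, so that Y1KO replicate 1 stood apart and replicate 2 lay inside the WT range. The list mean relative to WT was 0.20 in Y1KO replicate 1 and -0.02 in replicate 2, and between -0.06 and 0.05 in the WT arrays. Of the members that rose, Junb read 7.92 in Y1KO replicate 1 and 7.61 in replicate 2, and Atf3, Fos and Jund differed by at most 0.04. The part of handling in the differences of the AP-1 genes was not tested. With Y1KO replicate 1 left out, 1 gene of this list was called higher.

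Markers of some other cells moved with the genotype as well, beside 6.1% of all genes called higher and 6.64% lower. Of 12 macrophage markers, 6 rose and 0 fell, with 7 higher and 0 lower at an unadjusted limma p under 0.05. Their mean level was 5.48 to 5.83 in the Y1KO arrays and 5.12 to 5.30 in the WT arrays, and the shift was larger in Y1KO replicate 2 (0.61) than in replicate 1 (0.25). Adgre1 (F4/80) read 5.13 and 5.53 in the Y1KO arrays, against 4.47, 4.61, 4.58 and 4.41 in the WT arrays, and Csf1r read 6.01 and 6.41 in the Y1KO arrays, against 5.55, 5.78, 5.70 and 5.54 in the WT arrays. With Y1KO replicate 2 left out neither was called, with a difference of 0.61 for Adgre1 (limma adjusted p = 0.0605) and 0.36 for Csf1r (0.245), and Csf1r was not called with WT replicate 1 (0.0556) or WT replicate 4 (0.0573) left out. In Y1KO replicates 1 and 2, Junb read 7.92 and 7.61, Fos 9.28 and 9.24, Jund 8.73 and 8.71 and Atf3 8.49 and 8.48. With only 2 Y1KO arrays, the order of these values cannot be tied to the markers. Of 12 smooth muscle and pericyte markers, 9 fell and 1 rose. Their mean level was 7.88 to 8.01 in the Y1KO arrays and 8.71 to 8.97 in the WT arrays. The marker that rose was Cspg4, by 1.16 (limma adjusted p = 0.0123). Des was 0.52 higher but not past the test (limma adjusted p = 0.0772), and both were named after their values were seen. Tagln fell by 1.13 and Acta2 by 0.50, and Acta2 had an adjusted p of 0.0512 with Y1KO replicate 1 left out and 0.102 with Y1KO replicate 2 left out. Of 7 adipocyte markers 3 fell and 0 rose. Of 9 osteoblast, 8 endothelial and 8 granulocyte markers 0 rose and 0 fell, while at an unadjusted limma p under 0.05 the higher ones numbered 3, 0 and 2 and the lower ones 0 in each list. The osteoblast mean relative to WT was 0.32 and 0.40 in the Y1KO arrays, above the WT arrays at 0.02, -0.42, 0.20 and 0.20. The groups did not overlap for 6 of the 9 osteoblast markers, against 34.8% of all genes. Their differences ran from -0.36 to 1.53, with a median of 0.23. In the lymphocyte list 1 of 7 rose, Cd4, named after its value was seen. The part of these cells in the differences of the AP-1 genes was not tested. In sorted cells measured in bulk, more cells of a type and more RNA per cell cannot be told apart.

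**Figure D5:**
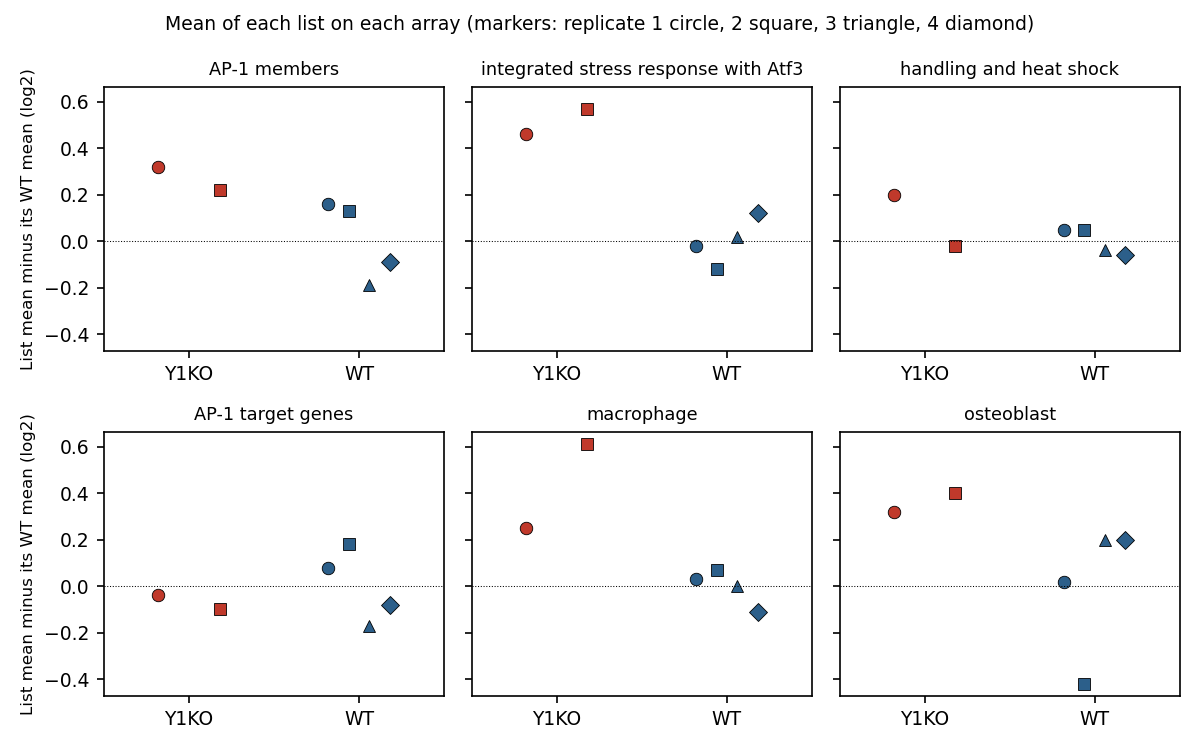
Mean of each of 6 lists on each array, minus the WT mean of the list on the log2 scale (y axis), for the 2 Y1KO arrays (red) and the 4 WT arrays (blue). The stress response mean is 0.46 and 0.57 in the Y1KO arrays, above all WT arrays. The means of the AP-1 members, macrophage and osteoblast lists are also higher in both Y1KO arrays than in all WT arrays. The means of the handling and heat shock list and of the AP-1 targets overlap between the groups. The macrophage mean is higher in Y1KO replicate 2 than in replicate 1.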

How the data were processed

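The authors deposited log2 expression values of probe sets from 6 single-channel Affymetrix arrays, 2 Y1KO and 4 WT. RMA and limma are named, without versions or order, per the submitters' processing notes. No label states the settings or the genome build. The values already had nearly the same distribution (mean difference of sorted values 0.0199), and no further scaling was applied.

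Probe sets were named from GEO's platform annotation, which can be old. Of 28815, 21780 had exactly 1 symbol, 1605 had several and 5430 were not listed. The probe set with the highest mean stood for each of 998 genes with several, leaving 19935 genes. Of the probe sets with 1 symbol, 21689 matched RefSeq (GRCm38.p6) by gene identifier.

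Y1KO was compared with WT by limma 3.58.1 in R 4.3.3 (lmFit, eBayes, genotype only, two-sided, Benjamini-Hochberg over all genes, called at an adjusted p under 0.05), checked on simulated data. Within-array ratios were tested by exact permutation. Precision is limited by the number of arrays. The labels do not say whether arrays are separate mice, so the p-values reflect only array-to-array spread, which may be technical. The members and lists were chosen with earlier results of these data known. Named genes were the members, the 4 of smallest p from each list, the 5 most like Atf3 and Fos, selected markers and Npy1r, with later additions marked as such. The alternatives were other normalizations, filters, probe set rules, variance models, array weights, a replicate block and leaving out each array. The labels do not say whether same-numbered arrays are paired. Deviations of same-numbered arrays from their group means correlated at 0.013 and -0.204. These values cannot decide it, since the deviations of 2 Y1KO arrays mirror each other. Protein sequences were not used here.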

Additional observations from a re-analysis of the deposited data

Results flagged for a closer look

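In the WT group, where 4 arrays allow a check for a value far from the others, 8 of the 50 named genes had 1 array apart from the rest, a gap above Dixon's 95% critical share of the whole range. Chance flags about 1 in 20 groups. None of the 8 is an AP-1 member. WT replicate 2 was the array apart for 5 of them: it was the lowest for Creb3l1 (9.71, the others 10.26 or above), for Sp7 (9.70, the others 10.28 or above) and for Slc17a9 (5.82, the others 6.22 or above), and the highest for Csf1 (10.79, the others up to 10.21) and Tagln (11.31, the others up to 10.95). WT replicate 4 was the highest for Herpud1 (9.89, the others up to 9.75) and the lowest for Cpeb4 (7.43, the others 7.47 or above). WT replicate 1 was the highest for Rabl3 (7.46, the others up to 7.42). For Cpeb4 and Rabl3 the gap is small on the log2 scale and was flagged because the other WT arrays lay very close together. Without WT replicate 2 the calls of Creb3l1, Csf1 and Tagln held.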

How the results depend on the processing

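All 50 named genes kept their sign under each of the 16 alternatives in which they were measured (filters on level dropped a few dim genes). Of the 38 called, 29 lost the call without moderation of the variance (3 of them members: Atf3, Junb and Jund), 19 without Y1KO replicate 1, 21 without Y1KO replicate 2 and at most 1 without any WT array. Without moderation 344 of all genes were called, 140 of them higher, against 2541 and 1217. In that setting the members higher numbered 1 (Fos), the partner list had 0 higher and 0 lower, the kinase list 0 lower, the feedback list 0 higher and 1 lower, the target list 0 higher and 1 lower, the stress list 2 higher and the handling list 0 higher. The cause of the loss was not tested. The replicate block rests on the replicate numbers that both groups share, and whether these numbers pair the arrays is not known. With this replicate block 2 members were higher (Atf3 and Junb) and 3 lower (Jun at -0.59, Fosl1 at -0.63 and Fosl2 at -0.67), and the kinase list had 1 higher and 2 lower, the target list 5 lower and the handling list 1 lower, since WT replicates 3 and 4 then carry no weight in the contrast. With median-centred arrays 60.5% of all calls were higher, against 47.9% as deposited, and the partner and target lists had 4 higher genes each. The target list also had 4 higher with the filter at percentile 60 and with array weights. The kinase list had 1 higher with quantile normalization, median centring and both filters and 2 with array weights, and 3 lower with the filter at percentile 40 and 2 with array weights or with trend and robust options.

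When each array was left out in turn, the members higher ranged from 1 to 4, the partner genes higher from 0 to 3, the kinase genes higher from 0 to 2 and lower from 1 to 2, the feedback genes higher from 0 to 3 and lower from 1 to 4, the target genes higher from 0 to 4, the stress genes higher from 1 to 13 and the handling genes higher from 1 to 3. All genes called ranged from 487 to 2462, and those higher from 152 to 1172. The change of the Atf3 ratio kept its sign for all 8 members in each of these fits and with quantile normalization, at most 2.36. The number of arrays is the limit on precision, and dim genes such as Npy1r and Il6 have no measurable difference near the array's floor.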
